A study of Mus musculus with 12 samples.

Results

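The tripartite motif (TRIM) family was examined in bone-marrow-derived macrophages (BMDM) as the 65 genes, of 23440 in the expression table, whose symbol is Trim followed by a digit. A pseudogene row, Trim30e-ps1, was left out. Of the 65 genes, 37 reached at least 1 TPM (a gene's share of transcripts, corrected for length, on a scale that sums to 1000000 per library) in at least 3 of 12 libraries and were tested among 10822 such genes. The other 28 were too low, and 12 of these were listed at 0 in every library.

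The study asked how loss of the clock factor Bmal1 (gene symbol Arntl) alters inflammatory activation of macrophages. Its 4 groups of 3 cultures were M-BKO M1, WT M1, M-BKO control and WT control. M-BKO cells came from mice with floxed Bmal1 and a Cre inserted in Lyz2, a gene active in myeloid cells, and WT cells came from floxed Bmal1 mice for which the methods name no Cre. All cultures were primed with Ifn-γ, the M1 cultures also received LPS for 8 h, and control cultures received no LPS. The Cre insertion and the loss of Bmal1 always occurred together, so they cannot be told apart here. How many mice gave the cultures is not stated in the sources used here, and p-values therefore measure the spread between these cultures.

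TRIM proteins share an N-terminal tripartite motif of a RING domain, B-box zinc fingers and a coiled coil, and most differ from each other in what follows it. The RING gives most of them E3 ubiquitin ligase activity, and the coiled coil lets them form dimers and larger assemblies. Many members are induced by interferons, and in macrophages the family is best known for regulating the sensing of nucleic acids and bacterial products and for blocking viruses directly.

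Promoter stretches of 4 members named below are shown. Capitals mark matches to the core of the interferon-stimulated response element (GAAANNGAA on either strand) and to the E-box CACGTG. The E-box is a letter string known to be bound by Bmal1 with its partner Clock. Members without a match before the start are not shown. Trim30a has a second RefSeq window (chr7:104446076-104446375), not shown, with the core at bases 4 to 12 after its start. The stretches are RefSeq sequence (GRCm38.p6), written in the direction of transcription, and each lies upstream of a start that RefSeq annotates.
Trim30d, chr7:104507861-104507909, minus strand: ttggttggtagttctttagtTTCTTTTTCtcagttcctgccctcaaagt
Trim30a, chr7:104465200-104465248, minus strand: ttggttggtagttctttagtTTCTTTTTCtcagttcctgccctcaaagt
Trim12c, chr7:104353350-104353397, minus strand: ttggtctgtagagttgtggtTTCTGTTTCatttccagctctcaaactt
Trim25, chr11:88999335-88999402, plus strand: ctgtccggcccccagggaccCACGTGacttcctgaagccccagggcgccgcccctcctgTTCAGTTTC
The stretches of the paralogues Trim30d and Trim30a were identical at 49 of 49 bases. Trim30d had the largest M1 rise of the tested members, Trim30a passed the fold threshold in neither genotype, and Trim12c fell. The interferon-stimulated response element core was found in the promoter window (250 bases before to 50 after the start) of 9 of 27 tested members with such a window (33.3%) and of 9.76% of 27025 genes. It was present in 2 of the 5 that rose in both genotypes (Trim25 and Trim30d), 1 of the 7 that fell in both (Trim12c) and 6 of the remaining 15. The E-box was found in 3 of the 27 (11.1%, against 8.09% of all genes), namely Trim25, Trim39 and Trim46, and the interferon-gamma activated site TTCNNNGAA in 2 of the 27 (Trim45 and Trim46, 7.41%, against 9.55% of all genes). A match to these letters is a description of the sequence and says nothing of binding in these cells.

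Some facts of the whole series bear on the values. TPM does not keep the number of reads, so the depth of the libraries is unknown, and 13315 to 13574 genes were above 0 per library. Replicate cultures were closer to each other in M-BKO than in WT, with a residual SD per library of 0.0952 to 0.106 (M-BKO) and 0.111 to 0.175 (WT) in log2 units. Arntl was at 3.03 to 3.39 TPM in M-BKO M1 and 4.81 to 5.80 TPM in WT M1 cultures, and at 1.97 to 2.46 TPM in M-BKO control and 7.25 to 7.71 TPM in WT control cultures. Lyz2 was at 47.0 to 78.8 TPM in M-BKO and 14840 to 34645 TPM in WT cultures. The 6 macrophage markers in the table (of 7 listed) summed to 3715 to 5109 TPM per library, and no other marker list exceeded 8.59 TPM. Single macrophage markers moved apart. In both genotypes the means of Csf1r, Cd68 and Fcgr1 were lower in M1 than in control cultures, and those of Itgam, Mertk and Cd14 higher. The 3 dendritic cell markers summed to 5.85 to 8.59 TPM in M1 and 1.84 to 3.34 TPM in control cultures. Most of that sum was Xcr1, with means of 5.89 TPM in M-BKO M1, 7.16 TPM in WT M1, 1.68 TPM in M-BKO control and 2.74 TPM in WT control cultures. Flt3 and Zbtb46 averaged 0.396 TPM or less in every group. The 3 neutrophil markers summed to 0.0769 to 0.504 TPM in M1 and 1.08 to 2.47 TPM in control cultures. The part of either list in the M1 results was not tested.

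A few genes held most of the TRIM transcripts. The 65 genes together summed to 1467 ± 42.7 TPM in M-BKO M1, 1503 ± 47.0 TPM in WT M1, 1169 ± 8.02 TPM in M-BKO control and 1189.6 ± 48.1 TPM in WT control cultures (SD, n = 3 each, as for all values below). Trim30a, which restrains Toll-like receptor signalling in mouse macrophages, was the most abundant member in every group, with 21.04% to 25.7% of the family's TPM. TPM is scaled per transcript length, so levels can be set beside each other. After M1 the order of mean levels went on with Trim25, Trim35, Trim30d and Trim21 in both genotypes. In control cultures of both genotypes it was Trim21, Trim25 and Trim12c that followed Trim30a, with Trim28 next in M-BKO and Trim35 next in WT. Trim25 and Trim35 were neighbours in WT M1 cultures (237 ± 3.95 and 230.2 ± 5.62 TPM), where the lowest library of Trim25 and the highest of Trim35 were both at 234 TPM. Of all members, 9 averaged at least 50 TPM over the 12 libraries, 17 averaged 5 to 50 TPM, and 11 tested members averaged less.

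M1 activation moved the TRIM genes in both directions. Genes were called in the M1 comparisons at an adjusted p under 0.05 (limma on log2(TPM + 1), Benjamini-Hochberg over all genes) and a fold over 1.5. In M-BKO cultures 8 of the 37 tested members rose (21.6%, against 12.3% of all tested genes) and 11 fell (29.7%, against 42.3%). In WT cultures 8 rose (21.6%, against 12.9% of all tested genes) and 11 fell (29.7%, against 41.0%). The sets were nearly the same: 8 members rose in both genotypes, 9 fell in both, Trim28 and Trim3 fell in M-BKO alone, Trim59 and Trim7 fell in WT alone, and none moved in opposite directions. The calls in one genotype alone were not called as differing between genotypes by the interaction. The M-BKO and WT comparisons share no library, but both came from the same fit with a common estimate of spread per gene. Their p-values are therefore not independent. In bulk RNA, fewer cells of a type and less RNA per cell cannot be told apart.

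The choice of scale matters for these counts. All tested genes had a median log2 fold change of -0.45 in M-BKO and -0.43 in WT, and the TRIM genes of -0.23 in M-BKO and -0.22 in WT. When libraries were scaled by the median ratio, the median of all genes was within 0.003 of 0, and the TRIM median became 0.17 in M-BKO and 0.18 in WT. On that scale 11 members rose and 5 fell in M-BKO (22.4% and 22.1% of all genes), and 13 rose and 6 fell in WT (22.9% and 21.1% of all genes). The added rises were those of Trim30a, Trim34a and Trim34b in both genotypes and of Trim14 (0.86) and Trim62 (0.64) in WT. No member called on either scale changed direction. Fold changes below are on log2(TPM + 1) as deposited, which understates the change of low genes, and median-ratio values are named as such.

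The largest rise was that of Trim30d (chr7:104470014-104507849, mm10), a mouse paralogue known to restrict tick-borne flaviviruses. It had 107, 96.96 and 108 TPM in M-BKO M1 and 115, 98.0 and 104 TPM in WT M1 cultures, against 19.8, 17.2 and 17.4 TPM in M-BKO control and 23.3, 23.9 and 27.3 TPM in WT control cultures. Every M1 library was above every control library. No overlap within a genotype was a condition for naming the largest rises and falls, here and below. The log2 fold change was 2.46 in M-BKO (SE 0.08, adjusted p = 9e-13) and 2.04 in WT (SE 0.08, adjusted p = 6.7e-12).

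Trim25 (chr11:88999403-89020293), the ligase that ubiquitinates the RNA sensor RIG-I, and Trim35 (chr14:66297025-66311424), first described in mouse as Hls5 and linked to haematopoietic lineage switching, reached the level of the most abundant members after M1. Trim25 had 227, 208 and 230 TPM in M-BKO M1 and 242, 234 and 237 TPM in WT M1 cultures, against 78.9, 83.6 and 82.7 TPM in M-BKO control and 83.9, 87.3 and 91.9 TPM in WT control cultures. Its log2 fold change was 1.43 in each genotype (SE 0.05, adjusted p = 1.7e-12 in M-BKO and 1.8e-12 in WT). Trim35 had 203, 199 and 205 TPM in M-BKO M1 and 233, 224 and 234 TPM in WT M1 cultures, against 70.1, 71.7 and 72.3 TPM in M-BKO control and 77.1, 74.8 and 71.7 TPM in WT control cultures. It rose by 1.49 in M-BKO (SE 0.04, adjusted p = 1.2e-13) and 1.61 in WT (SE 0.04, adjusted p = 5.3e-14) on the log2 scale. For both genes the M1 and control libraries were far apart.

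Trim36, Trim56 and Trim13 were less abundant, and every M1 library was above every control library for each, as their selection required within each genotype. Trim36, a COS-box member that associates with microtubules, averaged 17.5 ± 0.142 TPM in M-BKO M1 and 14.7 ± 0.983 TPM in WT M1, against 4.92 ± 0.431 TPM in M-BKO control and 4.86 ± 0.582 TPM in WT control cultures (log2 fold change 1.64 in M-BKO and 1.43 in WT). Trim56, a ligase that promotes cytosolic DNA sensing, averaged 42.0 ± 4.25 TPM in M-BKO M1 and 45.2 ± 2.29 TPM in WT M1, against 19.2 ± 0.912 TPM in M-BKO control and 20.03 ± 1.28 TPM in WT control cultures (1.08 in M-BKO and 1.14 in WT). Trim13, a ligase anchored in the endoplasmic reticulum that restrains signalling by the RNA sensor MDA5, averaged 20.3 ± 0.454 TPM in M-BKO M1 and 16.7 ± 0.846 TPM in WT M1, against 7.88 ± 0.583 TPM in M-BKO control and 7.40 ± 0.169 TPM in WT control cultures (1.26 in M-BKO and 1.08 in WT). All 6 of these folds passed the test (adjusted p = 4.1e-09 or less). The remaining risers, the Trim30a paralogue Trim30b and Trim17, known for a role in neuronal apoptosis, were low, at 6.59 TPM or less in any group mean, and rose by 0.77 to 0.95 on the log2 scale.

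**Figure D1:**
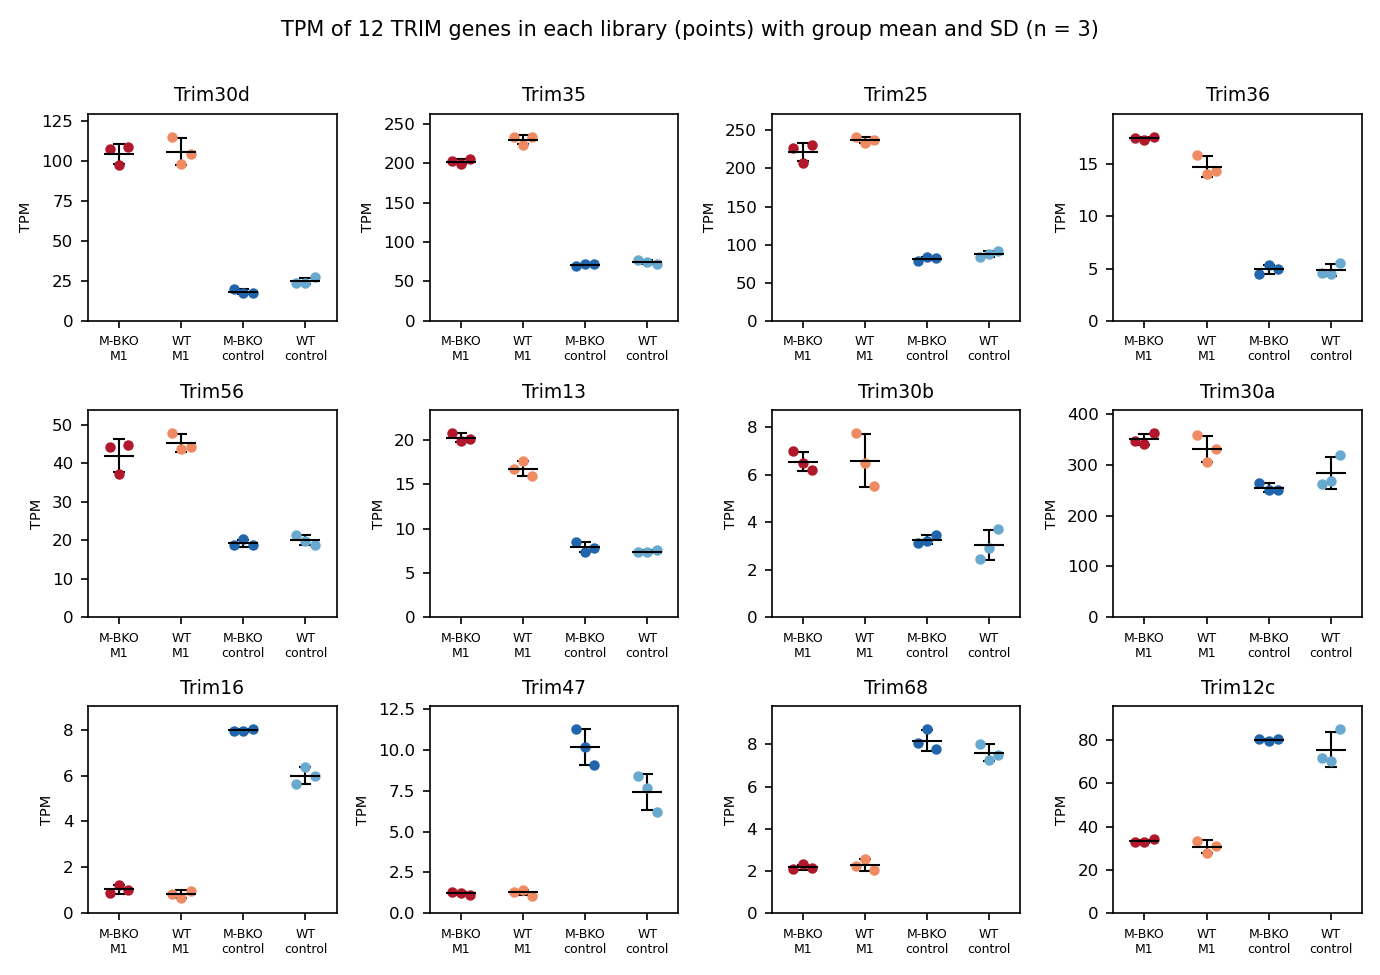
Level in TPM (linear axes from 0) of 12 TRIM genes in the 12 libraries of M-BKO M1, WT M1, M-BKO control and WT control cultures, with points for libraries and bars for the group mean and SD (n = 3). Trim30d, Trim35, Trim25, Trim36, Trim56, Trim13 and Trim30b were higher in every M1 library than in any control library, and Trim16, Trim47, Trim68 and Trim12c lower. No overlap within a genotype was a condition for naming these rises and falls. For Trim30a the WT groups overlapped (306 to 358 TPM in WT M1 against 263 to 319 TPM in WT control).

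The steepest falls were those of Trim16 and Trim47. Trim16, which lacks a RING and takes part in the autophagy of damaged lysosomes in human cells, had 0.864, 1.24 and 1.01 TPM in M-BKO M1 and 0.827, 0.653 and 0.993 TPM in WT M1 cultures, against 7.93, 7.95 and 8.02 TPM in M-BKO control and 5.64, 6.37 and 5.98 TPM in WT control cultures. It fell by 2.14 on the log2 scale in M-BKO (SE 0.09, adjusted p = 2e-11) and had a log2 fold change of -1.94 in WT (SE 0.09, adjusted p = 6.3e-11). Trim47, a RING and SPRY member, had 1.33, 1.24 and 1.11 TPM in M-BKO M1 and 1.33, 1.43 and 1.08 TPM in WT M1 cultures, against 11.3, 10.2 and 9.08 TPM in M-BKO control and 8.41, 7.69 and 6.21 TPM in WT control cultures. Its log2 fold change was -2.33 in M-BKO (SE 0.11, adjusted p = 5.3e-11) and -1.88 in WT (SE 0.11, adjusted p = 5.7e-10). Both genes were near 1 TPM in all 6 M1 libraries and above 5 TPM in all 6 control libraries.

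Trim68, known in human as an autoantigen of Sjögren syndrome, fell to 2.18 ± 0.121 TPM in M-BKO M1 and 2.28 ± 0.278 TPM in WT M1, against 8.19 ± 0.489 TPM in M-BKO control and 7.61 ± 0.392 TPM in WT control cultures. Its log2 fold change was -1.53 in M-BKO and -1.40 in WT (SE 0.08, adjusted p = 2e-10 in M-BKO and 5.8e-10 in WT). Trim12c, a mouse gene of the Trim5 group of antiviral paralogues, was in control cultures the most abundant of the 9 that fell in both genotypes. It had 32.7, 32.8 and 34.2 TPM in M-BKO M1 and 33.4, 27.7 and 31.2 TPM in WT M1 cultures, against 80.4, 79.6 and 80.4 TPM in M-BKO control and 71.6, 70.3 and 85.0 TPM in WT control cultures (log2 fold change -1.25 in M-BKO and -1.27 in WT, SE 0.07). These falls and those of Trim16, Trim47 and Trim24 passed the test on the median-ratio scale too, in both genotypes.

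Other falls depended on the scale. Trim11, which takes part in the clearance of misfolded proteins, Trim37, whose human gene is mutated in mulibrey nanism, and the zinc-finger protein Trim44 had log2 fold changes of -0.97, -0.73 and -0.73 in M-BKO and -0.80, -0.86 and -0.80 in WT. After median-ratio scaling these were -0.50, -0.36 and -0.25 in M-BKO and -0.35, -0.51 and -0.35 in WT, below the fold threshold. Trim32 passed on that scale in WT (-0.61) and missed it in M-BKO (-0.50). The calls in 1 genotype alone were lost as well, with Trim28 at -0.12 and Trim3 at -0.30 in M-BKO, and the membrane-anchored Trim59 at -0.34 and the glycogenin-binding Trim7 at -0.44 in WT. The WT call of Trim59 also ended without WT M1 culture 2 or WT control culture 3, and that of Trim7 without WT control culture 3.

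The members were also grouped by protein architecture, in classes that hold 1 to 5 tested genes except for the first. The first class, of 20 tested genes with a RING and a SPRY domain, has many interferon-induced members and leaves out the COS-box members. Of these 20, 5 rose and 4 fell in M-BKO (median log2 fold change -0.14), and 5 rose and 5 fell in WT (-0.08). Among all tested genes, 12.3% rose and 42.3% fell in M-BKO, and 12.9% rose and 41.0% fell in WT. After median-ratio scaling 8 of the 20 rose and 3 fell in M-BKO, against 22.4% and 22.1% of all genes. On that scale 9 rose and 3 fell in WT, against 22.9% and 21.1% of all genes. The 3 tested PHD and bromodomain members, which are nuclear cofactors, held no riser. Trim24, a reader of histone marks and nuclear receptor cofactor, averaged 1.13 ± 0.0620 TPM in M-BKO M1 and 1.06 ± 0.165 TPM in WT M1, against 3.74 ± 0.294 TPM in M-BKO control and 3.43 ± 0.226 TPM in WT control cultures (log2 fold change -1.15 in M-BKO and -1.11 in WT). Trim28, the corepressor of KRAB zinc-finger proteins, averaged 48.2 ± 0.561 TPM in M-BKO M1 and 46.4 ± 1.199 TPM in WT M1, against 73.8 ± 0.992 TPM in M-BKO control and 69.4 ± 2.40 TPM in WT control cultures. It had nearly the same log2 fold change in M-BKO (-0.60) and WT (-0.57), on either side of the fold threshold. Both tested NHL-repeat members fell in M-BKO, namely Trim32, whose human gene is mutated in a limb-girdle muscular dystrophy, and the brain-enriched Trim3. In WT only Trim32 of these passed (-0.99), with Trim3 at -0.53. Of the 2 tested COS-box members Trim36 rose, and of the 2 with no further domain Trim56 rose, each in both genotypes. Of the 2 with a SPRY domain and no RING Trim16 fell in both genotypes. Trim44, the 1 tested member of the remaining class with a B-box and no RING, also fell in both. Of 5 with another C-terminal domain Trim13 rose and Trim37 fell in both, and Trim59 fell in WT. Neither of the 2 tested members of the major histocompatibility region, Trim26 and Trim39, was called.

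**Figure D2:**
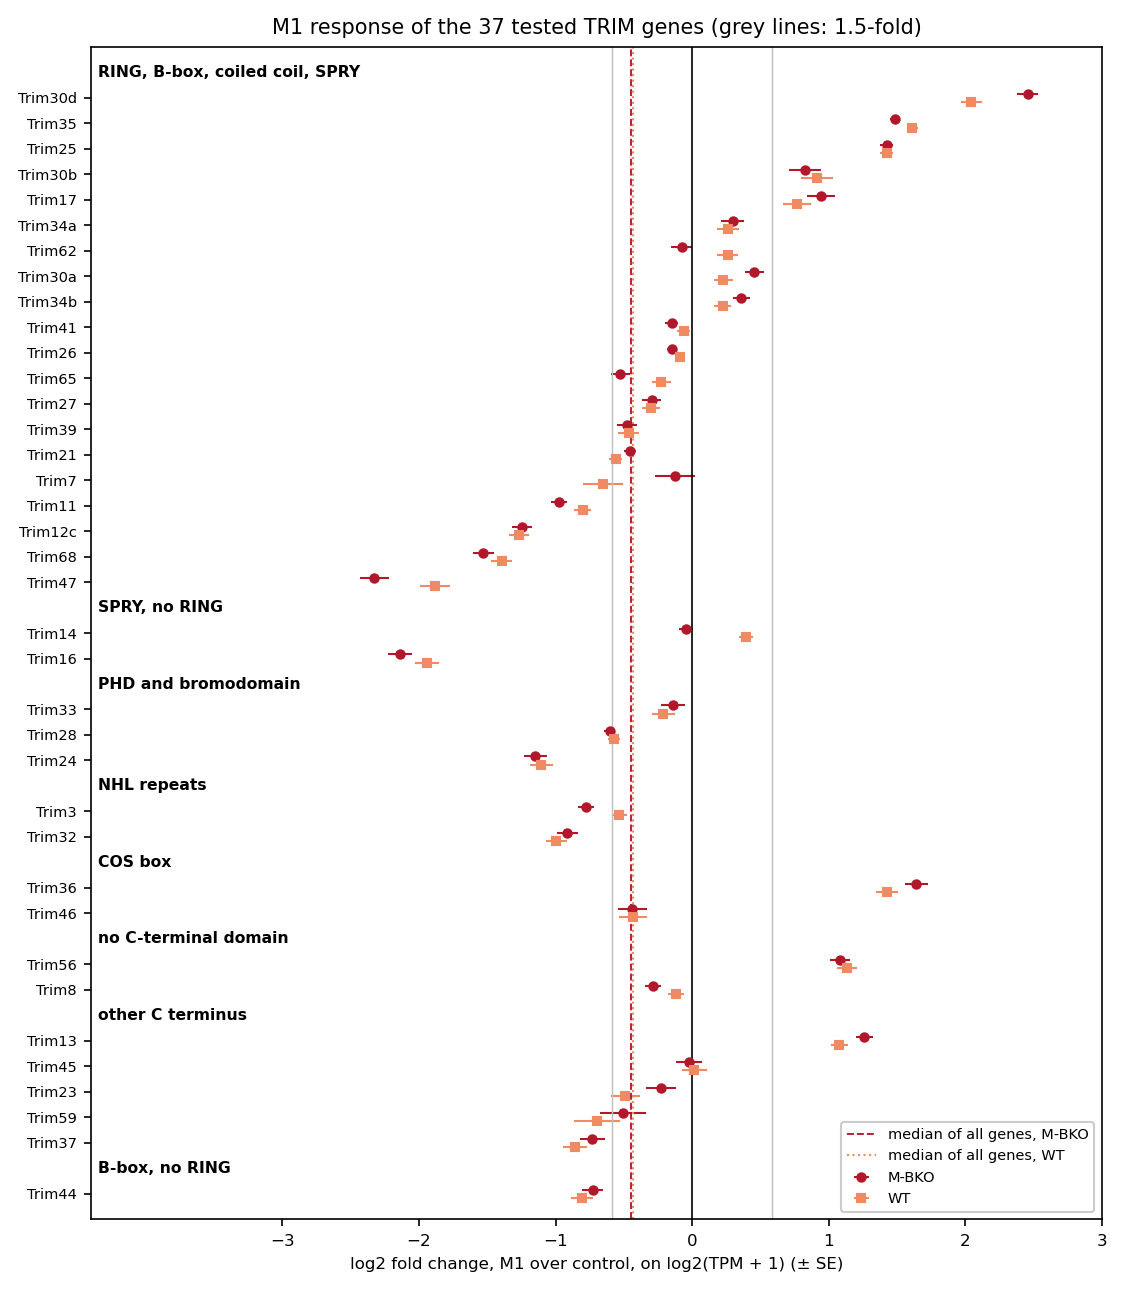
Log2 fold change of M1 over control on log2(TPM + 1), with SE, for the 37 tested TRIM genes in M-BKO (circles) and WT (squares), grouped by protein architecture. Grey lines mark 1.5-fold and the broken lines the median of all genes (-0.45 in M-BKO, -0.43 in WT). Trim30d was highest in both genotypes (2.46 in M-BKO, 2.04 in WT), and the lowest were Trim47 in M-BKO (-2.33) and Trim16 in WT (-1.94).

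A list of 16 members known as regulators of innate sensing had 14 tested genes, of which 3 rose in each genotype (Trim13, Trim25 and Trim56), and 2 fell in M-BKO (Trim32 and Trim68) and 3 in WT (also Trim59), against the shares of all genes given above (12.3% higher and 42.3% lower in M-BKO, 12.9% higher and 41.0% lower in WT). After median-ratio scaling 4 of the 14 rose and 1 fell in M-BKO, and 5 rose and 2 fell in WT. Trim21, the cytosolic antibody receptor, was not called, with 89.5 ± 2.93 TPM in M-BKO M1 and 84.3 ± 1.59 TPM in WT M1, against 123 ± 1.31 TPM in M-BKO control and 125 ± 7.30 TPM in WT control cultures. Its log2 fold change of -0.45 in M-BKO and -0.56 in WT lay close to the median of all genes, and after median-ratio scaling it was 0.04 in M-BKO and -0.09 in WT.

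Genes of the sensing pathways on which TRIM ligases act moved in both directions. Of 18 such partners, 6 rose and 2 fell in each genotype. Among all tested genes, 12.3% rose and 42.3% fell in M-BKO, and 12.9% rose and 41.0% fell in WT. After median-ratio scaling 14 partners rose and 2 fell in M-BKO, against 22.4% and 22.1% of all genes. On that scale 10 rose and 1 fell in WT, against 22.9% and 21.1% of all genes. Isg15, the ubiquitin-like modifier, averaged 3009.7 ± 37.3 TPM in M-BKO M1 and 3327 ± 114 TPM in WT M1, against 704 ± 4.73 TPM in M-BKO control and 918 ± 47.2 TPM in WT control cultures (log2 fold change 2.09 in M-BKO and 1.86 in WT). The RNA sensor Ifih1 rose by 1.65 in M-BKO and 1.44 in WT on the log2 scale. The adaptors of DNA and RNA sensing fell, with Tmem173 (Sting) at -2.30 in M-BKO and -2.34 in WT, and Mavs at -1.20 in M-BKO and -1.04 in WT. After median-ratio scaling the call of Mavs was lost in WT, where its value of -0.58 lay just under the fold threshold, and kept in M-BKO (-0.72). Among 10 partners of Trim28 in gene silencing, 1 rose (Hdac1, 0.59) and 3 fell in M-BKO, and none rose and 3 fell in WT. After median-ratio scaling 2 rose and 2 fell in M-BKO, and 2 rose and 1 fell in WT. The shares of all genes on both scales are those given for the sensing partners. The falls included Cbx3, a heterochromatin protein (-1.55 in M-BKO, -1.94 in WT), and Setdb1, the histone methyltransferase (-1.06 in M-BKO, -0.98 in WT), whose WT value after median-ratio scaling was -0.53 and under the fold threshold.

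On chromosome 7 (mm10), which holds 14 of the 65 genes, 8 members lie side by side in the rodent counterpart of the TRIM5 locus, from Trim6 at 104218795 to the end of Trim30d at 104507849. In this cluster a single gene fell among neighbours that rose or stayed under the fold threshold. Its 6 tested genes had median log2 fold changes of 0.41 in M-BKO and 0.25 in WT, against -0.45 in M-BKO and -0.43 in WT for all genes. Trim30d and Trim30b rose, and Trim12c, which lies next to Trim30b and is transcribed in the same direction, fell. Trim30b averaged 6.56 ± 0.402 TPM in M-BKO M1 and 6.59 ± 1.13 TPM in WT M1, against 3.26 ± 0.182 TPM in M-BKO control and 3.03 ± 0.642 TPM in WT control cultures.

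Trim30a, Trim34a and Trim34b passed the adjusted p but stayed under 1.5-fold. Trim30a had 346, 341 and 363 TPM in M-BKO M1 and 358, 306 and 331 TPM in WT M1 cultures, against 265, 251 and 250 TPM in M-BKO control and 263, 268 and 319 TPM in WT control cultures. The M-BKO groups did not overlap, and the WT groups did (log2 fold change 0.46 in M-BKO and 0.23 in WT). Trim34a was at 0.30 in M-BKO and 0.26 in WT, and Trim34b at 0.36 in M-BKO and 0.22 in WT. All 3 passed the fold threshold in both genotypes after median-ratio scaling (0.68 to 0.95), so that 5 of the 6 rose on that scale and Trim12c fell. Among all tested genes on that scale, 22.4% rose and 22.1% fell in M-BKO, and 22.9% rose and 21.1% fell in WT. The interferon-stimulated response element core was in the promoter window of 6 of the 8 genes, against 9.76% of 27025 genes. The printed stretches of Trim30d and Trim30a are identical, so these matches are not separate observations.

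The balance of paralogues shifted accordingly. Trim30d stood at 0.284 to 0.309 of the Trim30a level in M-BKO M1 and 0.315 to 0.321 in WT M1 libraries, against 0.0685 to 0.0748 in M-BKO control and 0.0856 to 0.0890 in WT control libraries. Set against Trim12c, it was 2.96 to 3.27 times as high in M-BKO M1 and 3.33 to 3.54 times in WT M1 libraries, against 0.216 to 0.246 times in M-BKO control and 0.321 to 0.340 times in WT control libraries. Trim6 and Trim12a of the same cluster stayed at 0.435 TPM or less in every library.

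Reads of near-identical copies could be divided between them in the counting, which allowed several mapping positions per read. In GENCODE M21 transcripts, 56.8% of the 50-base stretches of Trim34b and 39.8% of those of Trim34a also occurred in another gene, chiefly each other. For Trim12c it was 33.0%, chiefly Trim5 (not analysed here), and it is unknown whether reads of Trim5 were counted to Trim12c. The share was 7.5% for Trim30d and 6.0% for Trim30a, chiefly each other. The values of Trim34a, Trim34b and Trim12c are therefore less certain than those of Trim30a and Trim30d. Trim17 shared 17.7% of its stretches, chiefly with Hist3h2a, and Trim13 shared 14.2%, with Gm9359. Trim47 shared 6.6% with Trim65, and Trim65 shared 3.0% with Trim47. These shares describe GENCODE models, which can differ from the deposited genes. The GENCODE genes Trim47 (to chr11:116127210) and Trim65 (from 116121846) overlap, and the deposited ones (to 116110235 and from 116124708) do not. The deposited Trim17 (chr11:58963781-58971729) is shorter than the GENCODE gene (58954685-58973098).

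**Figure D3:**
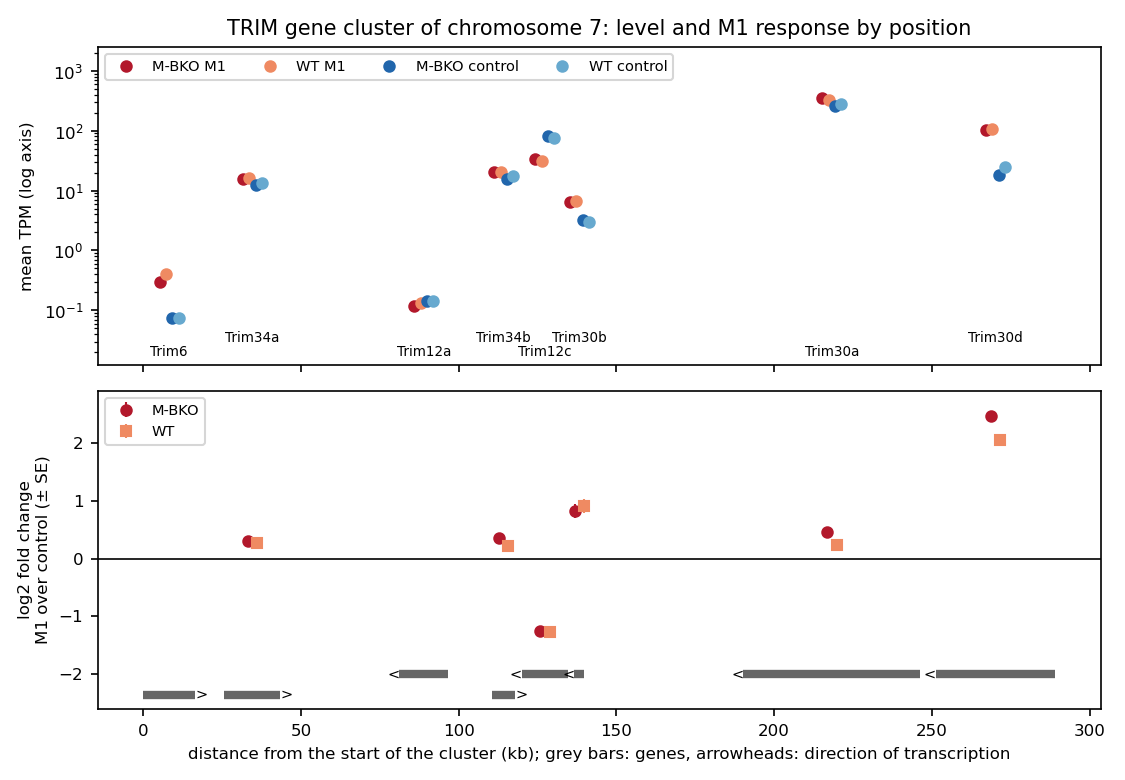
Mean TPM in the 4 groups (upper panel, log axis) and log2 fold change of M1 over control with SE for tested genes (lower panel, M-BKO circles, WT squares) of the 8 clustered TRIM genes of chromosome 7, by distance in kb from the start of Trim6. Grey bars mark the genes. Trim30d at one end had the largest rise (2.46 in M-BKO, 2.04 in WT), and Trim12c was the only one of the 6 tested genes below 0 (-1.25 in M-BKO, -1.27 in WT).

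The comparison of genotypes asked what the loss of Bmal1 changed. After M1 the TRIM genes called were about as frequent as among all tested genes, and their differences were small. After M1, 3 of 37 members passed an adjusted p under 0.05 (8.11%, against 8.32% of all tested genes). Trim14 and Trim35 were lower in M-BKO and Trim13 was higher. Trim14 (chr4:46506847-46536144), an adaptor at the mitochondrial protein Mavs that has no RING, had 54.2, 51.0 and 54.6 TPM in M-BKO M1 cultures, against 66.4, 71.9 and 71.2 TPM in WT M1 cultures. All 3 M-BKO M1 libraries were below all 3 WT M1 libraries (log2 fold change -0.38, SE 0.05, adjusted p = 0.00064).

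Trim14 was also the single member called in the interaction, the M1 response of M-BKO minus that of WT (1 of 37, 2.70%, against 1.38% of all tested genes). Without LPS it had 51.7, 57.6 and 55.9 TPM in M-BKO control cultures, against 51.5, 55.3 and 52.0 TPM in WT control cultures, and these overlapped. Its M1 log2 fold change was -0.05 in M-BKO (adjusted p = 0.42) and 0.39 in WT (adjusted p = 7.2e-06, under 1.5-fold), and after median-ratio scaling 0.44 in M-BKO and 0.86 in WT, the WT value then being called. The difference between the responses was -0.44 (SE 0.07, adjusted p = 0.012).

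Trim35, given above per culture, did not overlap between genotypes after M1 either (202 ± 3.14 TPM in M-BKO M1, 230.2 ± 5.62 TPM in WT M1, log2 fold change -0.19, SE 0.04, adjusted p = 0.0086). Trim13 was higher in M-BKO M1 (20.8, 19.9 and 20.1 TPM, against 16.8, 17.6 and 15.9 TPM in WT M1, log2 fold change 0.26, SE 0.06, adjusted p = 0.02). The call of Trim13 ended after quantile normalization and without M-BKO M1 culture 1, 2 or 3 or without WT M1 culture 3, with adjusted p of 0.052 to 0.093 without those cultures, and its libraries did not overlap. Without WT control culture 3, Trim3 and Trim36 were called in addition, and 5 members in all, and after median-ratio scaling Trim3 was (-0.22).

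Without LPS, 4 of 37 members differed (10.8%, against 5.68% of all tested genes). Trim30d was lower in M-BKO, with 19.8, 17.2 and 17.4 TPM in M-BKO control cultures, against 23.3, 23.9 and 27.3 TPM in WT control cultures (log2 fold change -0.43, SE 0.08, adjusted p = 0.0046). The groups did not overlap. After M1 the genotypes overlapped (104 ± 6.22 TPM in M-BKO M1, 106 ± 8.55 TPM in WT M1, log2 fold change -0.02, SE 0.08). The interaction for Trim30d was 0.41 (SE 0.11, adjusted p = 0.084), and it passed after median-ratio scaling (0.43) and after quantile normalization.

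The others were higher in M-BKO control cultures. Trim47 stood at 10.2 ± 1.10 TPM in M-BKO control, against 7.44 ± 1.12 TPM in WT control cultures (log2 fold change 0.41, SE 0.11, adjusted p = 0.04), and Trim16 at 7.97 ± 0.0473 TPM, against 5.99 ± 0.366 TPM (0.36, SE 0.09, adjusted p = 0.034). Trim65, which ubiquitinates the RNA sensor Ifih1, stood at 7.77 ± 0.645 TPM in M-BKO control, against 6.22 ± 0.172 TPM in WT control cultures (0.28, SE 0.07, adjusted p = 0.03). The libraries of each gene did not overlap. These 3 calls were lost, and that of Trim30d kept, when Lyz2 was left out of the TPM total, and likewise after median-ratio scaling or without M-BKO control culture 1 or 2 or WT control culture 2. The log2 fold changes after median-ratio scaling were 0.34 for Trim47, 0.29 for Trim16 and 0.21 for Trim65, with adjusted p of 0.12 to 0.15.

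**Figure D4:**
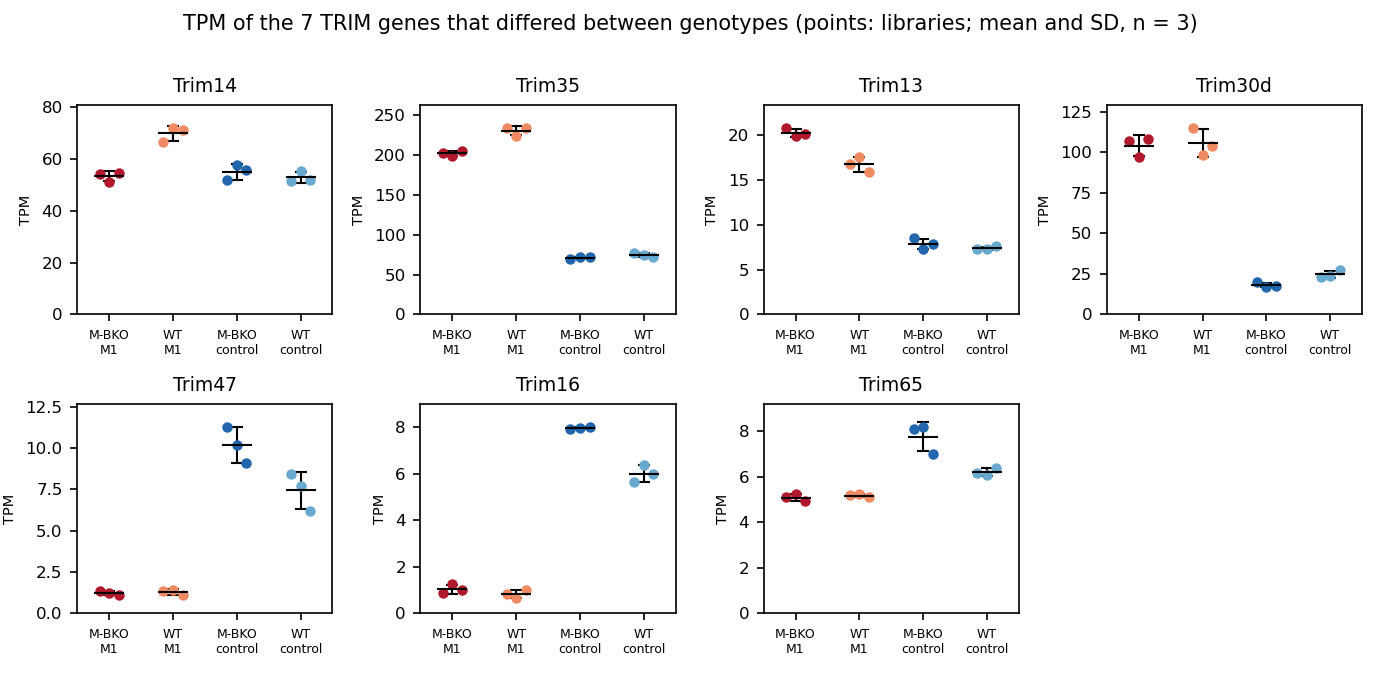
Level in TPM (linear axes from 0) of the 7 TRIM genes called between genotypes, in the libraries of M-BKO M1, WT M1, M-BKO control and WT control cultures (points), with the group mean and SD (n = 3). Trim14 (53.3 TPM in M-BKO M1, 69.9 TPM in WT M1), Trim35 and Trim13 separated the genotypes after M1, and Trim30d (18.1 TPM in M-BKO control, 24.9 TPM in WT control), Trim47, Trim16 and Trim65 separated them without LPS.

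Among the sensing partners, 3 of 18 were lower in M-BKO after M1 (2.45% of all tested genes were lower), namely Rnf135, a cofactor of RIG-I (49.5 ± 2.46 TPM in M-BKO M1, 60.4 ± 2.28 TPM in WT M1, log2 fold change -0.28, adjusted p = 0.0053), Dhx58 (-0.16) and Isg15 (-0.14). Without LPS 1 of 18 was lower, Isg15 (-0.38, adjusted p = 6.2e-05), against 1.12% of all tested genes. After median-ratio scaling 4 of the 18 were lower after M1 and 3 without LPS, against 4.40% and 1.74% of all tested genes.

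A list of 4 genes of the family with other names had 3 tested. The microtubule-binding Mid1 differed most between genotypes, with 44.6 ± 1.88 TPM in M-BKO M1 and 4.20 ± 0.617 TPM in WT M1, and with 18.1 ± 0.0285 TPM in M-BKO control and 0.908 ± 0.0908 TPM in WT control cultures. Its log2 fold change of M-BKO over WT was 3.14 after M1 (SE 0.08, adjusted p = 8.9e-12) and 3.32 without LPS (SE 0.08, adjusted p = 4.1e-12), larger than that of any of the 37 members. Mid1 also rose with M1, by 1.26 in M-BKO and 1.44 in WT. Mefv, which encodes the inflammasome sensor pyrin, rose by 2.43 in M-BKO and 2.40 in WT and was higher in M-BKO after M1 (0.23, adjusted p = 0.027), a call lost after median-ratio scaling (0.18). Pml, the organizer of nuclear bodies, was not called in the M1 comparisons (0.11 in M-BKO, 0.29 in WT), passed as higher in both after median-ratio scaling, and was lower in M-BKO after M1 (-0.20, adjusted p = 0.027).

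Of the 28 members not tested, 16 were above 0 in some library. Trim69 was the highest, with 0.983, 1.002 and 1.19 TPM in M-BKO M1 and 0.828, 0.780 and 0.903 TPM in WT M1 cultures, against 0.0554, 0.105 and 0.113 TPM in M-BKO control and 0, 0.0543 and 0.0524 TPM in WT control cultures. The M1 and control libraries did not overlap. In a fit with no filter on low values Trim69 was the only added member called, in both M1 comparisons (log2 fold change 0.91 in M-BKO, adjusted p = 7.9e-09, and 0.83 in WT, adjusted p = 2e-08). Trim10, a gene of erythroid cells, and Trim6 were likewise higher in M1 libraries, and the NHL-repeat gene Trim2 was lower, all at 0.435 TPM or less, and these 4 genes were singled out after their values were seen. The tissue-restricted list, which holds members of muscle, neurons, red cells and germ cells, had 1 tested gene of 16, Trim46, which was not called (-0.44 in M-BKO, -0.43 in WT).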

How the data were processed

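RNA of 12 BMDM cultures was sequenced as stranded mRNA libraries. The authors' methods describe read trimming and alignment to mm10 with CLC Genomics Workbench, and the authors deposited TPM per gene, which sums to 1000000 in every library. The gene annotation and the program's version are not given in the sources used here. Reads mapping to several places were allowed. Tables of the authors' own fold changes and p-values were not used. Depth cannot be recovered from TPM. Precision was taken from the spread of the 3 cultures within each group, pooled over the 4 groups and moderated across genes. The SE of a gene was therefore the same in both genotypes.

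Genes that reached 1 TPM in 3 or more libraries were kept (10822), and their log2(TPM + 1) was fitted in R 4.3.3 with limma 3.58.1 (4 group means, 8 residual degrees of freedom, variance trend). The p-values were adjusted by Benjamini-Hochberg over all genes. Calls needed an adjusted p under 0.05, in M1 comparisons also a fold over 1.5. Promoters and figures were made in Python 3.11.15 with pandas 2.3.3 and matplotlib 3.10.9. The fit was tested on simulated data.

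The members, the lists and the tests were chosen with earlier results of these data known. Named members are the up to 8 largest rises and 8 largest falls per M1 comparison whose groups do not overlap and whose higher mean is 5 TPM or more, all members called between genotypes, the 5 most abundant, the chromosome 7 cluster genes of at least 5 TPM, and up to 2 called genes per direction of each list. Members singled out otherwise are said to be. Gene positions (mm10) come from the deposited table. All 65 members overlapped their GENCODE M21 gene on the same strand. Promoter windows are from RefSeq (GRCm38.p6), where 50 members matched by symbol.

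The alternatives varied the pseudocount, the filter, the scaling, the variance model, the libraries fitted, the fold threshold and a block for the replicate number.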

Additional observations from a re-analysis of the deposited data

Results flagged for a closer look

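One result stood out because the M1 response differed between genotypes by a test of the difference itself. For Trim14 the M-BKO response less the WT response was -0.44 on the log2 scale (SE 0.07, adjusted p = 0.012, limma). The M1 log2 fold change was -0.05 in M-BKO and 0.39 in WT, and all 3 M-BKO M1 libraries (51.0 to 54.6 TPM) were below all 3 WT M1 libraries (66.4 to 71.9 TPM). Over 23 alternatives the estimate was -0.48 to -0.39 and the adjusted p 0.0089 to 0.045.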

How the results depend on the processing

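Of 1170 values of single members in 49 member and comparison pairs, 1087 kept their side of the threshold, 73 lost a call, 10 gained one and none reversed. The count of members that rose with M1 in WT was 8 as reported, and 13 after median-ratio scaling or with no fold threshold. The count that fell in WT was 11 as reported, 6 with a pseudocount of 5, 7 with a filter of 5 TPM, 6 after median-ratio scaling, 5 after quantile normalization, 21 with no fold threshold and 5 with a fold over 2. The count that fell in M-BKO was 11 as reported, 7 with a pseudocount of 5, 5 after median-ratio scaling, 5 after quantile normalization, 20 with no fold threshold and 5 with a fold over 2. Between genotypes without LPS 4 members were called as reported, 2 with a pseudocount of 0.1, 2 with no filter, 1 after median-ratio scaling, 2 after quantile normalization, 1 without Lyz2 in the total, 1 without the 50 most abundant genes in the total and 2 with the groups compared alone. In the interaction 1 was called as reported, 2 after median-ratio scaling and 2 after quantile normalization. Counts of all 10822 tested genes moved too. In WT 12.9% of them rose as reported and 22.9% after median-ratio scaling. Falls in WT were 41.0% as reported, 21.1% after median-ratio scaling and 23.6% after quantile normalization, and in M-BKO 42.3%, 22.1% and 24.4%. In the same order 615, 331 and 404 genes were called without LPS, and 149, 152 and 146 in the interaction. Shares for the other settings are not given here. When each culture was left out in turn, 2 to 5 members were called between genotypes after M1 and 1 to 4 without LPS. The 24 alternatives left Trim14, Trim35 (both after M1) and Trim30d (without LPS) called, with adjusted p of 0.00024 to 0.0056, 0.0013 to 0.047 and 0.00061 to 0.038. Same-numbered libraries correlated at -0.25 to 0.26 after removal of group means and 5 of 12 had their best match under their own number, so the numbers were not taken to pair the cultures. With a replicate block the counts were 8 higher and 11 lower in each genotype, 3 after M1, 4 without LPS and 1 in the interaction. The causes of these changes were not tested. Since TPM keeps no read number, what depth limits for low members such as Trim7 or Trim17 is unknown.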
